A study of Mus musculus with 10 samples.

Results

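The citric acid cycle oxidizes acetyl-CoA in the mitochondrial matrix and passes the electrons to the respiratory chain as NADH and reduced flavin. In brown adipose tissue (BAT) this supply feeds a respiratory chain that UCP1 uncouples, so that the energy leaves as heat, and brown adipocytes are known for their dense mitochondria. Described here are 9 genes of the cycle in interscapular brown adipose tissue (iBAT): Cs, Idh3a, Idh3b, Idh3g, Ogdh, Dlst, Suclg1, Fh1 and Mdh2. They were taken from a fixed list of cycle enzymes, not from their values, and all 9 were among the 13739 genes tested, of 41249 gene identifiers counted.

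Whole iBAT depots of 5 whole-body constitutive Axl KO mice and 5 wild-type (WT) mice were profiled by RNA sequencing, all after a high-fat diet (HFD) challenge at standard room temperature. The records give an age of 6 to 8 weeks at the start of the diet and 24 weeks of feeding, whereas the study's methods state a somewhat older start. The study names homozygous mice and WT littermate controls, and describes the sequenced mice as male. The Axl KO mice carry a knockout-first cassette between exons of Axl in every tissue, derived from a pair of embryonic stem cell clones, so brown adipocytes cannot be separated from other cells or from earlier development as the site of the deletion. Each mouse gave 1 library, with a total of 5431014 to 9580215 counts. Axl itself was at 1.57 CPM (counts of a gene relative to the TMM-scaled library size) on average in Axl KO and at 43.2 CPM in WT mice (log2 fold change −4.77, adjusted p = 1.09e-07 in edgeR).

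All 10 brown adipocyte markers on a fixed list had reads in every mouse, with a summed level of 8381 to 11593 CPM in Axl KO and 6493 to 8624 CPM in WT mice. Of these, 9 were higher in Axl KO mice and 0 were called by edgeR, while 5 had an unadjusted p under 0.05, all higher in Axl KO mice. The share of all tested genes with such a p was 4.52% in this direction and 8.38% in either direction. Ucp1 was at 5572 CPM in Axl KO and 4128 CPM in WT mice (log2 fold change 0.43, adjusted p = 0.572 in edgeR), and Cidea, another brown adipocyte gene, at 1763 and 1745 CPM. The part of these markers in the values of the cycle enzymes was not tested. Skeletal muscle lies against this depot and is itself rich in cycle enzymes. The level of skeletal muscle markers varied between mice, and the source of these reads was not tested. Its 16 markers summed to 100 to 4264 CPM in Axl KO and to 1034 to 4837 CPM in WT mice, with 0 of 16 higher in Axl KO and 0 called by edgeR or with an unadjusted p under 0.05. Among the other lists, macrophage markers summed to 124 to 234 CPM in Axl KO and 140 to 220 CPM in WT mice, and fibroblast markers to 467 to 789 and 682 to 906 CPM. The values are averages over all cells of the depot, in which fewer cells of a type and less RNA per cell cannot be told apart.

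The 9 genes were abundant, so counting error was small. Together they took 1.39 to 1.57% of the counts of a mouse, and a single gene in a single mouse had between 4235 counts (Fh1) and 35174 counts (Ogdh), for which counting alone gives a standard deviation of 1.54 and 0.533%. Within a genotype, the coefficient of variation over 5 mice was 2.94 to 9.89%. Overlapping genes held few reads. On the opposite strand, Nop56 shares 5 exonic bases with Idh3b and reached at most 184 counts, against at least 7738 for Idh3b. Kmo and the small RNA Gm23182, which overlap Fh1 and Cs without a shared exonic base, reached at most 7 and 4 counts.

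No change of the cycle enzymes was detectable between Axl KO and WT mice. By edgeR's quasi-likelihood test 0 of the 9 genes were called at an adjusted p under 0.05, and by DESeq2 also 0, and 0 had an unadjusted p under 0.05 in either tool. Over all tested genes edgeR called 0.00728% (Axl alone), DESeq2 called 0.0655%, and 8.38% had an unadjusted p under 0.05 in edgeR (4.52% higher and 3.86% lower in Axl KO mice). The values of the 2 genotypes overlapped for all 9 genes, whereas they were free of overlap for 1.36% of the tested genes. The log2 fold change was above 0 for 6 of the 9 genes, against 49.7% of all tested genes, and its median was 0.044, against −0.00078 over all tested genes. The 95% interval of the change was each gene's own: it was −5.63 to 12.6% for Suclg1, −14.2 to 4.28% for Cs and −4.10 to 20.9% for Idh3a.

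**Figure D1:**
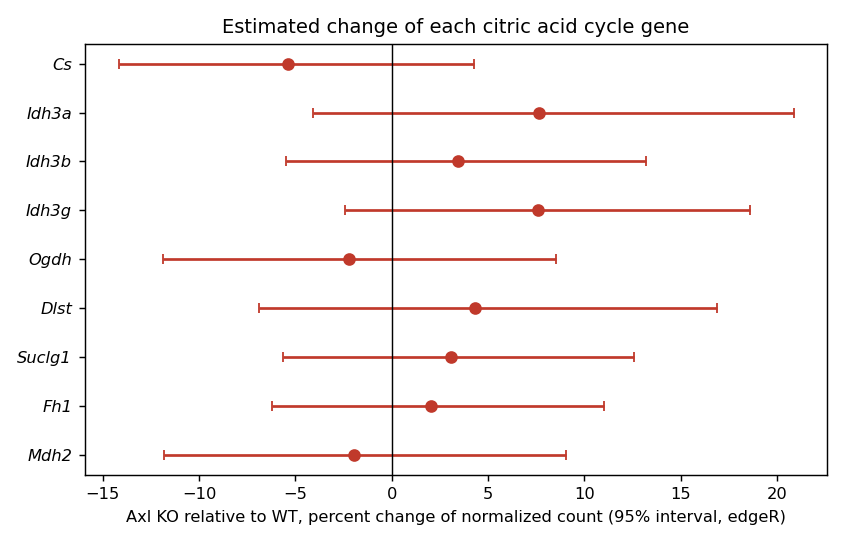
Estimated change of each of the 9 genes in Axl KO relative to WT mice, in percent of the normalized count, with the 95% interval from edgeR's quasi-likelihood fit (5 mice per genotype). Every interval includes 0, and the point estimates run from −5.40% for Cs to 7.66% for Idh3a.

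Cs encodes citrate synthase, which joins acetyl-CoA to oxaloacetate and opens the cycle. Cs (ENSMUSG00000005683, chromosome 10 from 128337734 to 128362479, forward strand, GRCm38 as for all genes here) was at 2458, 2932, 2825, 3000 and 2661 CPM in Axl KO replicates 1 to 5 and at 2847, 3076, 2936, 2920 and 2888 CPM in WT replicates 1 to 5. The 3 lowest values all came from Axl KO mice, and the other 2 Axl KO mice lay within the WT range. The log2 fold change was −0.08 (standard error, SE, 0.06, 95% interval −14.2 to 4.28%, edgeR adjusted p = 0.746), and the two-sided exact permutation test of the difference gave p = 0.190.

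Isocitrate is then oxidized by NAD-dependent isocitrate dehydrogenase, whose catalytic subunit is encoded by Idh3a and whose regulatory subunits are encoded by Idh3b and Idh3g. Idh3a (ENSMUSG00000032279, chromosome 9 from 54586334 to 54604661, forward strand) was at 1980, 1670, 1769, 1994 and 2112 CPM in Axl KO and at 1589, 1860, 1705, 1851 and 1842 CPM in WT mice, in the order of the replicates. The 3 highest values came from Axl KO mice and the lowest from WT replicate 1. Its log2 fold change of 0.11 (standard error 0.08) was the largest of the 9, with an edgeR adjusted p of 0.708 and an exact permutation p of 0.198. Idh3g (ENSMUSG00000002010, chromosome X from 73778963 to 73786897, reverse strand) was at 1230, 1286, 1157, 1292 and 1353 CPM in Axl KO and at 1155, 1280, 1077, 1203 and 1157 CPM in WT mice. In 4 of 5 Axl KO mice Idh3g exceeded the WT median, and the log2 fold change of 0.11 (standard error 0.06) had the lowest edgeR adjusted p of the 9, 0.664 (exact permutation test, p = 0.0794). Without Axl KO replicate 3 the unadjusted p of Idh3g was 0.0486 and the adjusted p 0.336, in a fit where 14.8% of all genes had an unadjusted p under 0.05. Idh3b (ENSMUSG00000027406, chromosome 2 from 130279309 to 130284547, reverse strand) ranged from 1270 to 1471 CPM in Axl KO and from 1290 to 1403 CPM in WT mice, with a log2 fold change of 0.05 (SE 0.06, edgeR adjusted p = 0.836).

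The oxoglutarate dehydrogenase complex makes succinyl-CoA from 2-oxoglutarate. Ogdh encodes its decarboxylating subunit and Dlst the succinyltransferase at its core. Ogdh (ENSMUSG00000020456, chromosome 11 from 6291633 to 6356642, forward strand) had the highest count of the 9 genes and was at 3260, 3480, 3087, 3874 and 3620 CPM in Axl KO and at 3352, 3731, 3489, 3614 and 3529 CPM in WT mice. Both the highest value (replicate 4) and the 2 lowest (replicates 1 and 3) came from Axl KO mice, so the WT values lay inside the Axl KO range. Its log2 fold change was −0.03 (standard error 0.07, 95% interval −11.9 to 8.52%, edgeR adjusted p = 0.918). Dlst (ENSMUSG00000004789, chromosome 12 from 85110833 to 85134845, forward strand) was at 1428, 1360, 1162, 1477 and 1506 CPM in Axl KO and at 1239, 1389, 1367, 1376 and 1275 CPM in WT mice. Axl KO mice again held both ends, with the lowest value in replicate 3 and the highest in replicate 5. The log2 fold change was 0.06 (SE 0.08, edgeR adjusted p = 0.837), and 0.12 without Axl KO replicate 3 (adjusted p = 0.375).

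Suclg1 encodes the alpha subunit that both forms of succinyl-CoA synthetase share, Fh1 encodes fumarase, and Mdh2 encodes the mitochondrial malate dehydrogenase that regenerates oxaloacetate. Suclg1 (ENSMUSG00000052738, chromosome 6 from 73248382 to 73276911, forward strand) was at 1014 ± 61.6 CPM in Axl KO and 983 ± 28.9 CPM in WT mice (SD, n = 5 each), with a log2 fold change of 0.04 (edgeR adjusted p = 0.852). Fh1 (ENSMUSG00000026526, chromosome 1 from 175600374 to 175625635, reverse strand) was at 823 ± 35.8 and 806 ± 32.7 CPM in Axl KO and WT mice (SD, n = 5 each), with a log2 fold change of 0.03 (edgeR adjusted p = 0.904). Mdh2 (ENSMUSG00000019179, chromosome 5 from 135778480 to 135790398, forward strand) was at 855, 825, 834, 996 and 985 CPM in Axl KO and at 881, 948, 880, 911 and 964 CPM in WT mice. For Mdh2, 0 of the 5 Axl KO mice fell inside the WT range: replicates 1 to 3 lay below it and replicates 4 and 5 above it. The means were 899 ± 84.4 and 917 ± 38.2 CPM in Axl KO and WT mice (SD, n = 5 each), and the log2 fold change was −0.03 (edgeR adjusted p = 0.930).

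**Figure D2:**
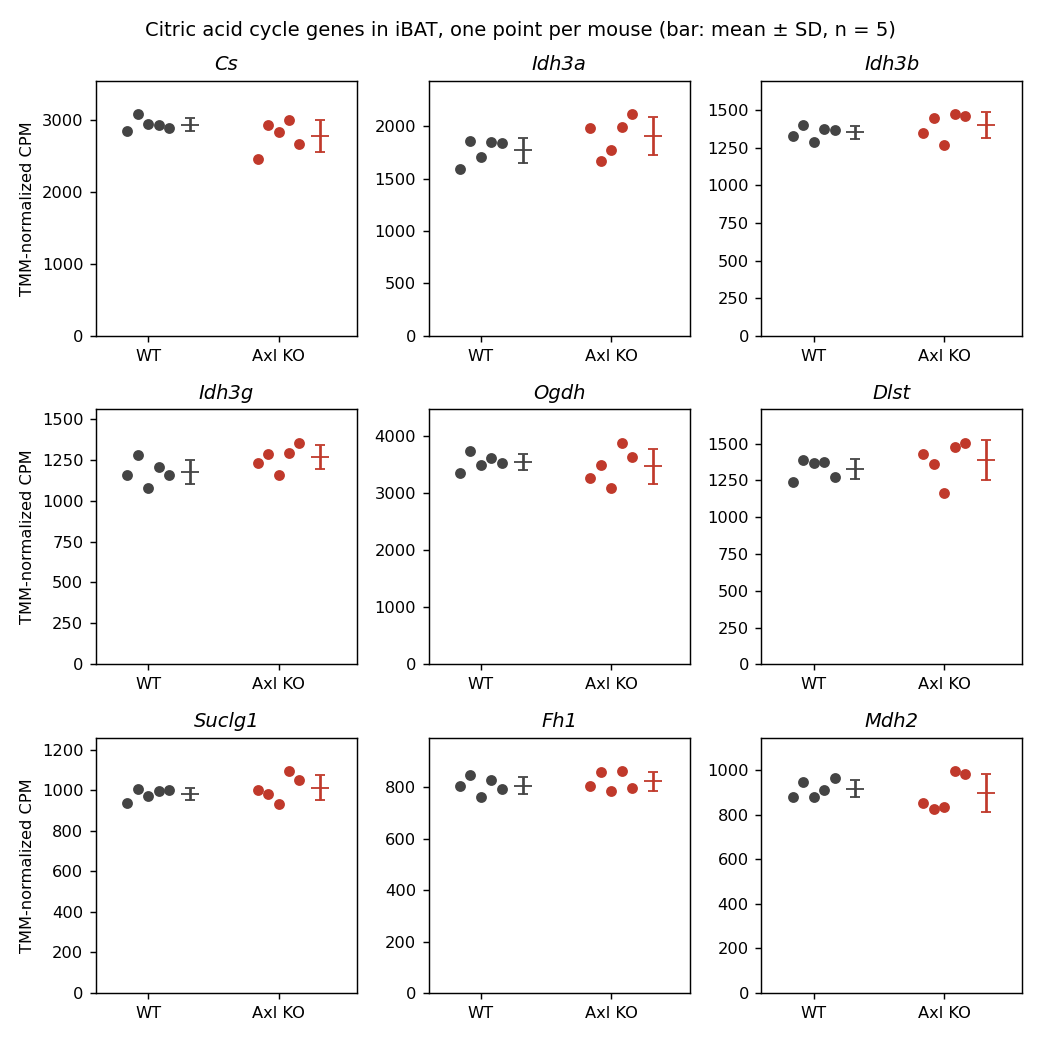
TMM-normalized CPM of the 9 genes, 1 point per mouse and replicates 1 to 5 from left to right within a genotype, with the mean ± SD of 5 mice beside them. The genotypes overlap in every panel, and for Mdh2 the Axl KO mice split into 3 below and 2 above the WT values.

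Values of most cycle enzymes were spread more widely in Axl KO than in WT mice. The coefficient of variation was higher in Axl KO than in WT mice for 8 of the 9 genes, all but Idh3g, with medians of 7.88 and 4.06%. The same order held for 63.1% of all tested genes, with medians of 13.3 and 11.3%. The difference in spread was not tested. Axl KO replicate 3 had the lowest value of 4 of the 9 genes, and Axl KO replicate 4 the highest value of 5. The mean of the 9 genes, each as log2(CPM + 1) centred on its 10-mouse mean, was 0.013 ± 0.085 in Axl KO and −0.013 ± 0.053 in WT mice (SD, n = 5 each). By this mean the mice ran from Axl KO replicate 4 (0.112), Axl KO replicate 5 (0.080) and WT replicate 2 (0.056) down to WT replicate 3 (−0.054), WT replicate 1 (−0.074) and Axl KO replicate 3 (−0.101), so the highest and the lowest mouse were both Axl KO. In these mice, in the same order, the summed skeletal muscle markers were at 812, 4264, 1097, 4837, 4008 and 2122 CPM. The summed brown adipocyte markers were at 9656, 11593, 8520, 6493, 7111 and 8381 CPM. Axl KO replicate 3 also had the lowest adipocyte sum (12161 CPM) and the highest macrophage sum (234 CPM) of the 10 mice. The part of these markers in the order of the mice was not tested. With the muscle markers as a covariate, 0 of the 9 genes were called, and the median log2 fold change was 0.038.

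**Figure D3:**
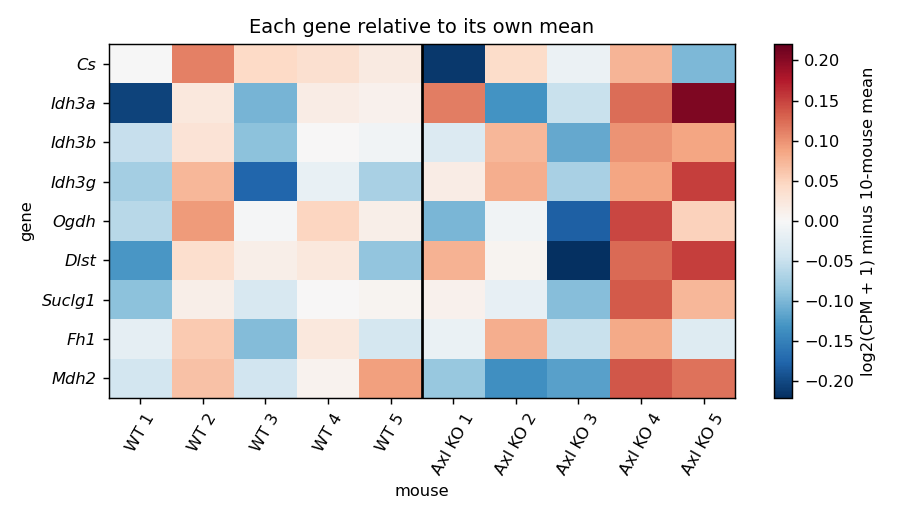
Each gene in each mouse as log2(CPM + 1) minus its mean over the 10 mice, with WT mice left of the line and Axl KO mice right of it. In Axl KO replicate 4 all 9 genes lie above their mean and in Axl KO replicate 3 all 9 lie below it. All 9 also lie above it in WT replicate 2 and below it in WT replicate 1. Cs has its 2 lowest values in Axl KO replicates 1 and 5, in which 4 and 7 of the 9 genes lie above their mean.

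Most of the 9 genes varied together from mouse to mouse. Of the 36 pairs, 33 had a Pearson correlation above 0 over the 10 mice (median 0.56), and 8 had an adjusted p under 0.05 for Pearson's r and 9 for Spearman's rho (permutation tests with 100000 resamples, Benjamini-Hochberg adjustment over the 36 pairs). The mice share a normalization, which these values include. Pairs of other genes were not counted, so whether the 9 genes vary together more than other genes in these mice was not tested. The closest pair was Idh3b and Idh3g, the regulatory subunits of isocitrate dehydrogenase (r = 0.88, permutation p = 9.90e-04, adjusted 0.0353; rho = 0.92, permutation p = 5.60e-04, adjusted 0.0195). Without the 2 mice farthest from the median of Idh3b the correlation was 0.93, and with each genotype centred on its own mean it was 0.89. Dlst and Suclg1, which encode subunits of enzymes that act in succession, followed (r = 0.85, permutation p = 0.00196, adjusted 0.0353; rho = 0.89, permutation p = 0.00133, adjusted 0.0195), with 0.70 without the 2 farthest mice. For other pairs, leaving out the 2 mice farthest from the first gene's median moved r either way. It fell for Ogdh and Dlst (0.70 to 0.28) and rose for Idh3g and Fh1 (0.70 to 0.93).

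Cs stood apart from this pattern. Its correlations with the other 8 genes ran from −0.39 (Idh3a) to 0.52 (Ogdh), and 0 of these 8 pairs had an adjusted p under 0.05 (permutation test), whereas all 28 pairs among the other 8 genes had an r above 0 (median 0.67). The 2 mice farthest from the median of Cs were Axl KO replicates 1 and 5, at 2458 and 2661 CPM. Without them the 8 correlations of Cs ran from 0.55 to 0.84, so the low values rest on these 2 mice. In the same 2 mice Idh3a was at 1980 and 2112 CPM, above every WT mouse. Idh3a was also above every WT mouse in Axl KO replicate 4 (1994 CPM), where Cs was at 3000 CPM.

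The genes whose log2 level most closely followed the mean of the 9 over the 10 mice were Uqcrc1, a core subunit of respiratory complex III (r = 0.95, rho = 0.95), and Sdhb, the iron-sulfur subunit of succinate dehydrogenase, itself an enzyme of the cycle (r = 0.94, rho = 0.92). Next came Golga5, Mccc1, BC028528, Rxrb, Ddrgk1, Acadvl, Immt and Foxred1, with r between 0.91 and 0.94. Acadvl encodes very long-chain acyl-CoA dehydrogenase, and Immt encodes a core protein of the inner membrane's cristae junctions. These 10 genes were picked for the highest r among all tested genes over the same 10 mice, so a high r follows from the choice. What the 10 have in common was not tested. Without the 2 mice farthest from the median of the mean, the correlations of the 10 genes were between 0.82 and 0.94. The choice of the 10 genes also rested on the remaining mice. The edgeR adjusted p of these 10 genes between genotypes was 0.705 or higher.

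Levels can be compared between genes only per length, and CPM was therefore divided by the length of the main annotated transcript in kilobases (kb). Cs was at 975 CPM per kb on average over the 10 mice, Idh3g at 916, Idh3b at 851, Ogdh at 849, Idh3a at 765, Suclg1 at 657, Mdh2 at 624 and Dlst at 491 CPM per kb. Fh1 was lowest at 309 CPM per kb, below Dlst in 10 of 10 mice. Several neighbours in this order did not separate: Idh3b exceeded Ogdh in 5 of 10 mice, Cs exceeded Idh3g in 8, Ogdh exceeded Idh3a in 8 and Suclg1 exceeded Mdh2 in 9 of 10 mice. The remaining neighbours kept their order in all 10 mice. With the union of all annotated exons as the length, a choice made after the data were seen, Ogdh came first and Fh1 moved from the last to the seventh place, so the order depends on the length used.

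Other genes of the cycle were measured on the same scale. Of succinate dehydrogenase, which is also complex II of the respiratory chain, Sdha was at 1086, Sdhb at 849, Sdhd at 597 and Sdhc at 162 CPM per kb. Dld, which encodes the dehydrogenase subunit that the oxoglutarate and pyruvate complexes share, was at 377 CPM per kb, and Idh2, the NADP-dependent mitochondrial isocitrate dehydrogenase, at 405 CPM per kb. Ogdhl, the paralogue of Ogdh, was at 0 to 0.773 CPM and was not tested. Mrps36, whose protein holds Dld in the oxoglutarate dehydrogenase complex, was at 56.1 CPM per kb.

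**Figure D4:**
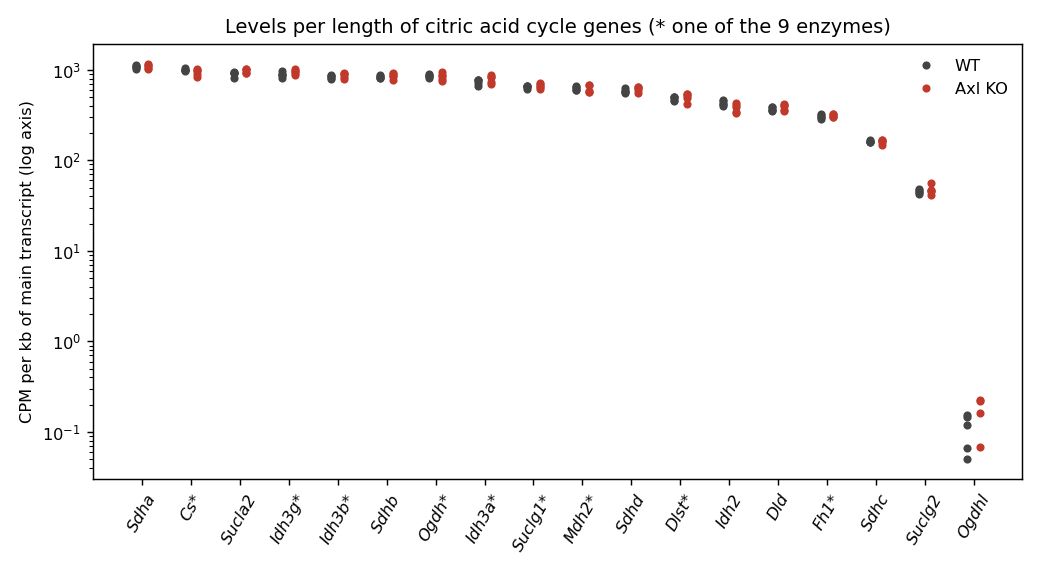
CPM per kb of main transcript (log axis) for the 9 enzymes, marked with an asterisk, and 9 further genes of the cycle, 1 point per mouse, with WT mice left and Axl KO mice right of each position. Sdha (1086 CPM per kb on average) and Cs (975) lie highest among the genes drawn, Suclg2 lies well below Sucla2, and Ogdhl near 0. Axl KO replicate 4, with 0 counts on Ogdhl, is not drawn there.

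Ratios between subunits of an enzyme are free of library size, and 4 were compared between genotypes. The ratio of Idh3a to Idh3b per kb was 0.918 ± 0.084 in Axl KO and 0.880 ± 0.042 in WT mice (SD, n = 5 each) (two-sided exact permutation test, p = 0.437; adjusted over the 4 ratios 0.582). Axl KO replicate 2 was low, at 0.777, and the other 4 Axl KO mice were at 0.912 to 0.990, above all WT mice, the highest of which was at 0.907. That mouse held the lowest ratio of all, so leaving it out removed the overlap by itself. Without Axl KO replicate 2 the log2 difference was 0.115 in place of 0.057 and the exact permutation p was 0.00794 (unadjusted). With any other single mouse left out, p was 0.421 to 0.794 in the same test. The ratio of Idh3a to Idh3g was 0.835 ± 0.067 in Axl KO and 0.835 ± 0.051 in WT mice (SD, n = 5 each) (exact permutation test, p = 0.984, adjusted 0.984), with a log2 difference of −0.0019.

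For Ogdh to Dlst the ratio was 1.53, 1.71, 1.78, 1.76 and 1.61 in Axl KO and 1.81, 1.80, 1.71, 1.76 and 1.85 in WT mice, in the order of the replicates. The 2 lowest values came from Axl KO replicates 1 and 5, and the 3 highest from WT mice. The log2 difference was −0.09 (exact permutation test, p = 0.0794, adjusted 0.317). Without Axl KO replicate 3 it was −0.11 (exact permutation test, p = 0.0476, unadjusted). Axl KO replicate 3 itself, at 1.78, lay within the WT range. With any other single mouse left out, the exact permutation test gave p = 0.0556 to 0.175, unadjusted.

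Succinyl-CoA synthetase carries either the ADP-specific beta subunit encoded by Sucla2 or the GDP-specific one encoded by Suclg2, beside the alpha subunit of Suclg1. The transcript of the ADP-specific subunit was the more abundant in all 10 mice. Sucla2 was at 941 and Suclg2 at 46.2 CPM per kb, so Sucla2 was 20.3-fold higher per main transcript length, and 15.6-fold higher with the union of exons. The ratio of Suclg2 to Sucla2 ranged from 0.0449 to 0.0553 over the 10 mice and was not shown to differ between genotypes (0.0482 ± 0.0044 in Axl KO and 0.0502 ± 0.0017 in WT mice, SD, n = 5; exact permutation test, p = 0.333, adjusted 0.582). Sucla2 itself was at 2175 ± 102 CPM in Axl KO and 2019 ± 111 CPM in WT mice (SD, n = 5 each), with a log2 fold change of 0.11 (SE 0.06, edgeR adjusted p = 0.642).

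**Figure D5:**
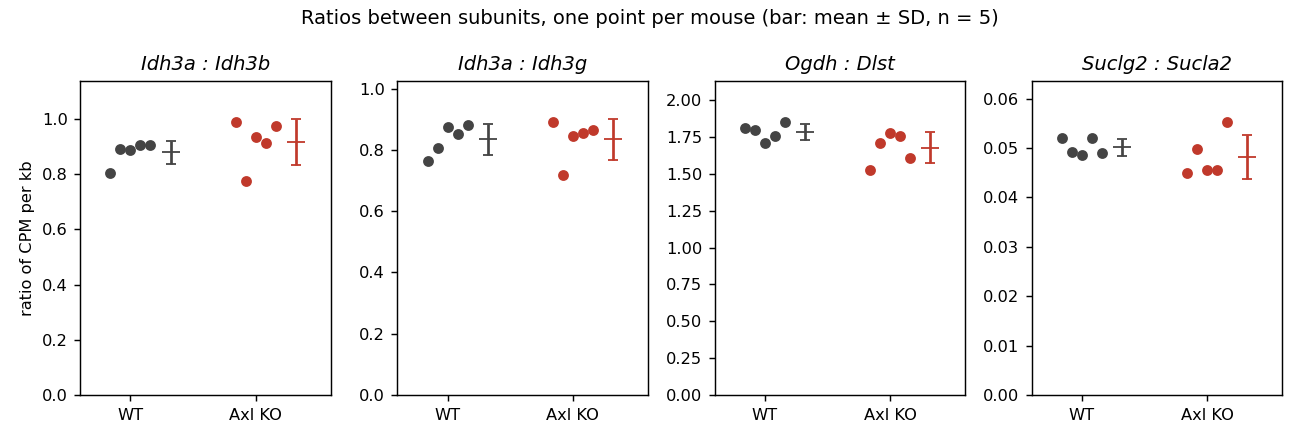
Ratios of CPM per kb between subunits of isocitrate dehydrogenase, the oxoglutarate dehydrogenase complex and succinyl-CoA synthetase, 1 point per mouse and replicates 1 to 5 from left to right, with the mean ± SD of 5 mice. All 4 ratios overlap between genotypes, and Axl KO replicate 2 lies lowest for both ratios of Idh3a.

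The rest of the pathway was followed with 7 further lists. Of the other genes of the cycle, 10 of 11 were tested, 7 were higher and 3 lower in Axl KO mice (median log2 fold change 0.041), 0 were called by edgeR and 0 had an unadjusted p under 0.05. The largest differences were for Idh2, at 663 ± 77.1 CPM in Axl KO and 750 ± 49.2 CPM in WT mice (SD, n = 5; log2 fold change −0.18, SE 0.08, edgeR adjusted p = 0.601), and for Mrps36, at 42.2 ± 5.43 and 36.4 ± 4.03 CPM (log2 fold change 0.21, edgeR adjusted p = 0.601). The groups overlapped for Idh2, with 757 CPM in the highest Axl KO mouse, replicate 3, and 694 CPM in the lowest WT mouse.

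Entry of pyruvate, through the mitochondrial carrier and the pyruvate dehydrogenase complex with its kinases and phosphatases, was measured by 13 genes, of which 8 were higher and 5 lower in Axl KO mice (median 0.037) and 0 were called by edgeR. An unadjusted p under 0.05 was found for 2 of them, both higher in Axl KO mice. The share of all tested genes was 4.52% in this direction and 8.38% in either direction. Mpc2, a subunit of the carrier, was at 461, 355, 335, 378 and 505 CPM in Axl KO and at 358, 339, 298, 350 and 340 CPM in WT mice (log2 fold change 0.27, SE 0.11, edgeR adjusted p = 0.572). The 2 high values came from Axl KO replicates 1 and 5, the mice in which Cs was low. Pdk3, a kinase of the complex, was scarce, at 1.88 ± 0.545 CPM in Axl KO and 1.21 ± 0.298 CPM in WT mice (SD, n = 5; log2 fold change 0.62, edgeR adjusted p = 0.572). The lowest log2 fold change of this list was that of the phosphatase Pdp1 (−0.16, edgeR adjusted p = 0.704).

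Among 12 tested genes that fill or drain the cycle, 4 were higher and 8 lower in Axl KO mice (median −0.026), with 0 called by edgeR. Of the 12, 1 had an unadjusted p under 0.05, a share near the 8.38% of all tested genes. This was Mcee, the methylmalonyl-CoA epimerase on the route from propionyl-CoA to succinyl-CoA, at 91.4, 72.3, 70.8, 85.5 and 121 CPM in Axl KO and at 57.3, 70.8, 67.7, 73.7 and 64.7 CPM in WT mice (log2 fold change 0.40, SE 0.13, edgeR adjusted p = 0.572). The groups overlapped, and the highest value came from Axl KO replicate 5. The mutase of the same route, Mut, had a log2 fold change of 0.09 (edgeR adjusted p = 0.738).

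The other lists gave 0 calls in edgeR and 0 genes with an unadjusted p under 0.05. Of the 6 cytosolic counterparts, 3 were higher in Axl KO mice (median 0.0023), from Got1 (0.34, edgeR adjusted p = 0.768, and −0.10 or 0.50 at the extremes when single mice were left out) to Acly, ATP citrate lyase (−0.15, adjusted p = 0.896 in the same test), and Mdh1, the cytosolic malate dehydrogenase, was at 0.09. All 4 genes for the lipoic acid cofactor of Dlst were above 0, from 0.0011 (Mcat) to 0.17 (Lipt1). Of 5 tested genes of mitochondrial calcium uptake, 3 were higher, from Micu2 at −0.09 to Mcu, the pore of the uniporter, at 0.12. Of 10 transcriptional regulators, 8 were higher (median 0.065), and the estrogen-related receptor Esrra, which activates many mitochondrial genes, was at 146 ± 18.1 CPM in Axl KO and 132 ± 10.8 CPM in WT mice (SD, n = 5; log2 fold change 0.14, edgeR adjusted p = 0.677). The extremes of the regulators were Esrrb (0.24) and Gabpb1, a subunit of the ETS-family factor GABP (−0.23, edgeR adjusted p = 0.631).

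The promoters of the 9 genes were searched for 3 motifs of regulators of mitochondrial genes. RefSeq promoters of GRCm38.p6, 250 bases before to 50 after an annotated start, were available for 8 of the 9 genes and gave 13 windows, 6 of them for Ogdh. The estrogen-related receptor motif TCAAGGTCA was in 0 of these 8 genes' windows and in 0.423% of all 32851 windows, searched on both strands. Part of the NRF1 motif, GCGCATGCG, was in those of 1 gene, Ogdh, and in 1.75% of all windows. The ETS motif ACTTCCGG was in the window of 1 gene, Dlst, and in 3.89% of all windows. A gene counts here with any of its windows, whereas the percentages are of single windows, so the 2 are not on the same scale. These matches describe letters in a window and show no binding. The 2 stretches are printed 5′ to 3′ on the strand of the gene to show where these sites lie in the genes of a single complex, with the motif in capitals. The one in Ogdh starts 15 or 36 bases before a start, depending on which of 2 annotated starts is taken, and the one in Dlst begins at the annotated start.
Ogdh, chr11:6292528-6292566 of GRCm38.p6, forward strand: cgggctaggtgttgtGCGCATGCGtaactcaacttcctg
Dlst, chr12:85110818-85110855 of GRCm38.p6, forward strand: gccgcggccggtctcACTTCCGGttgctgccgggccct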

How the data were processed

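Raw read counts per Ensembl gene were deposited by the authors as 1 table per mouse, without normalization or pooling. The study's methods name Trim Galore, hisat2 and GRCm38, whereas the submitters' processing notes list Trimmomatic 0.36, STAR 2.6.1c, DESeq2 and GRCm38.p5. The counting tool and its strand setting are not given in the sources used here, nor is it clear which RNA selection was used, since the records name polyA RNA and the methods rRNA depletion. Identifiers were matched to GENCODE M21 (41163 of 41249). Genes with a mean above 1 CPM over the 10 mice were compared with edgeR 4.0.16 in R 4.3.3 (TMM normalization, quasi-likelihood test, no covariate, Benjamini-Hochberg adjustment over all tested genes, threshold 0.05), with DESeq2 1.42.0 as an alternative. Standard errors and 95% intervals were derived from the edgeR F statistic. For single values, exact two-sided permutation of the genotype labels gave 252 assignments, whose smallest p is 0.00794. The procedure was tested on simulated counts. The tables of any 2 mice differed by at least 5.39 in chi-square per degree of freedom, so each was counted as 1 replicate. WT mice were littermate controls, and which mice shared a litter is not given in the sources used here. The 9 genes and all lists were chosen with earlier results of these data known. Named genes were Axl, the 9 genes, the 10 closest in pattern, Ucp1, Cidea and, of each list, the 2 lowest p-values and the extremes of the log2 fold change, apart from items that are not reported here. Alternatives were RLE factors, other filters, a robust fit, each mouse left out, a replicate block, protein-coding genes alone, a skeletal muscle covariate and offsets for GC content and length.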

Additional observations from a re-analysis of the deposited data

Results flagged for a closer look

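In 26 groups of 5 values (the 9 genes and 4 ratios in each genotype), 2 had an extreme value separated from the next by over 0.71 of the span of the 5 mice, and chance (about 1 in 20 groups) gives about 1.3. The ratio of Idh3a to Idh3b in WT mice was lowest in replicate 1, at 0.806 against a median of 0.892 (gap 0.816 of the range). The ratio of Idh3a to Idh3g in Axl KO mice was lowest in replicate 2, at 0.719 against a median of 0.855 (gap 0.741 of the range).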

How the results depend on the processing

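With DESeq2, 9 genes in all were called in place of 1, and 0 of the 9 cycle enzymes. Under all 20 alternatives 0 of the 9 were called, with a lowest adjusted p of 0.336 (Idh3g without Axl KO replicate 3), 6 or 7 were higher in Axl KO mice, and over the 10 fits that left out a mouse the median log2 fold change lay between 0.015 and 0.072 and 0 to 1 of the 9 had an unadjusted p under 0.05 in edgeR. With GC content and length offsets the median was 0.036. Values near 0 changed sign for Fh1 (−0.00023) and Mdh2 (0.011) with the skeletal muscle covariate, for Mdh2 (0.0014) without Axl KO replicate 2 and for Ogdh (0.0064) without Axl KO replicate 3. The cause was not tested. Over the mice left out, Mdh2 ranged from −0.068 to 0.0014 and Ogdh from −0.075 to 0.0064. Leaving out single mice, the log2 difference of Idh3a to Idh3b ranged from 0.025 to 0.115, that of Idh3a to Idh3g from −0.034 to 0.051, that of Ogdh to Dlst from −0.114 to −0.060 and that of Suclg2 to Sucla2 from −0.112 to −0.037. By the exact permutation test, the first passed the threshold of 0.05 among these settings only without Axl KO replicate 2 (p = 0.00794) and the third only without Axl KO replicate 3 (p = 0.0476), and the sign of the second turned without Axl KO replicate 2 or WT replicate 3, 4 or 5. The ratio of Ogdh to Dlst per kb was 1.73 by main transcripts and 4.53 by the union of exons, and that of Suclg2 to Sucla2 was 0.0641 by the union of exons.

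No link between same-numbered mice beyond the number is given in the sources used here. Their deviations from the genotype means correlated at −0.36 to 0.37, and 1 of 5 Axl KO mice correlated best with its own number. Whether they shared a litter or batch was not tested. With the replicate block edgeR called 1 gene and 0 of the 9, with a median of 0.042. For the 4 ratios, an exact sign-flip test over the 5 number pairs cannot give a p below 0.0625 and so bears on no call.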
